A study of Mus musculus with 10 samples.

Results

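Txnip and the arrestin domain genes Arrdc1, Arrdc2, Arrdc3 and Arrdc4 were followed by RNA sequencing in mouse Th17 cells kept with TMP269 or with DMSO. These 5 genes encode alpha-arrestins. They were picked by symbol, and all 5 had a row among the 17493 genes of the deposited table. All 5 were among the 12535 genes tested, which had at least 10 normalised reads in at least 2 libraries. Th17 cells are the helper T cells that make IL-17. Here they came from the spleens of C57BL/6 mice, where naive CD4 T cells were activated through CD3 and CD28 and cultured for 48 to 72 h with 20 ng/mL of IL-6 and 2.5 ng/mL of TGF-beta. TMP269 is a small molecule inhibitor of the class IIa histone deacetylases. The sources used here give neither its dose nor how long the cells were exposed. The control group received DMSO, and both groups shared the strain, the stimulation and the cytokines. Each group had 2 RNA libraries. The labels do not say whether these came from separate mice or cultures, so the spread behind the p-values may be technical only. The 6 chromatin libraries of the series, 4 with antibodies to HDAC4 or HDAC7 and 2 inputs, are not analysed here.

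Alpha-arrestins are adaptor proteins that sit at cell membranes and bring ubiquitin ligases of the NEDD4 family to membrane proteins, which are then taken into the cell. TXNIP, the thioredoxin interacting protein, binds thioredoxin and lowers glucose uptake by promoting the internalisation of glucose transporters. ARRDC4, its close relative, also lowers glucose uptake. Both genes are known to be switched on when glucose metabolites build up, through the transcription factors MondoA (Mlxip) or ChREBP (Mlxipl) paired with MLX at carbohydrate response elements. ARRDC1 recruits the ESCRT machinery and drives budding of small vesicles from the plasma membrane. ARRDC3 is best known for directing beta-adrenergic receptors and integrins to degradation, and the role of ARRDC2 is less settled.

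The sequences before the starts of Txnip and Arrdc4 are shown because these were the members that passed the test. Both are the 250 bases before the annotated start, 5′ to 3′ on the strand of the gene, from RefSeq on build GRCm38.p6. The expression files name build mm9 and carry no coordinates. All 5 members had at least 1 such window. Capitals mark the letter patterns searched on both strands, which were the E-box CACGTG, the carbohydrate response element-like pattern of 2 copies of CACGNG on 1 strand with 5 bases between them, the FOXO-like TGTTTAC and the CCAAT box CCAAT. The E-box is itself one form of CACGNG. The 2 copies had to face the same way, so counts of the carbohydrate response element-like pattern hold for that arrangement only. The Txnip window lies at chr3:96557707-96557956 on the plus strand, and the Arrdc4 window at chr7:68749239-68749488 on the minus strand.
Txnip: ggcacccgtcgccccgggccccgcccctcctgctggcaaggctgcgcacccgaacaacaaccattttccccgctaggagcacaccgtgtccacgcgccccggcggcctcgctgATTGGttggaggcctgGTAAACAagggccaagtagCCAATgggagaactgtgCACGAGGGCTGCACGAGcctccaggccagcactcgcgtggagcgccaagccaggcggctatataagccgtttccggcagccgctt
Arrdc4: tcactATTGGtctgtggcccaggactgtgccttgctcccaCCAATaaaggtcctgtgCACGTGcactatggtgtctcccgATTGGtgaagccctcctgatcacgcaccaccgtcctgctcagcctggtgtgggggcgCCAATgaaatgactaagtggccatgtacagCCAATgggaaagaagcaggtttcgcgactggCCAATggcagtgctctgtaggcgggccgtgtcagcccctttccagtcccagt
The Txnip window held 1 carbohydrate response element-like match, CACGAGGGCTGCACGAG, whose first base lies 85 bases before the start. Such a match was found in 15 of 32851 windows of the same length (0.0457%). The same window held 1 FOXO-like match, GTAAACA (in 3.17% of all windows), and 2 CCAAT boxes (in 33.8%). The Arrdc4 window held 1 E-box, whose first base lies 193 bases before the start (in 6.02% of all windows), and 6 CCAAT boxes. The window of Arrdc2 held 3 CCAAT boxes and that of Arrdc1 held none of the 4 patterns. Arrdc3 had 3 windows, of which the first and the third held 1 CCAAT box each. These are matches of letters in a fixed window, and binding was not measured.

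The libraries held 20007042 to 25321455 recovered reads. DMSO replicate 2 held more ribosomal RNA, with 2.20% of its reads in Rn45s against 0.716% to 1.12% in the other libraries. The T cell markers Cd3d, Cd3e, Cd3g, Cd4, Cd5, Lck and Lat summed to 47809 and 50468 normalised reads in DMSO and to 55938 and 55955 with TMP269. Of these 7 markers, 1 was called higher, beside 12.8% of all tested genes. Cd5 was at 9064 and 8439 in DMSO and at 13911 and 12217 with TMP269. Cd3d, Cd3e, Cd3g and Lck overlapped between the groups. Il17a and Il17f, the defining cytokine genes of Th17 cells, were detected in every library. Il17a was at 1888 and 1949 normalised reads in DMSO and at 750.4 and 786 with TMP269, and Il17f at 11745 and 13165 and at 5159 and 6885. B cell markers, 7 of 7 detected, summed to 3404 and 3593 in DMSO and to 2028 and 2116 with TMP269. Of these 7, 5 were called lower, beside 14.7% of all tested genes. The summed level of 7 myeloid markers was 152 and 121 in DMSO and 324 and 368 with TMP269, most of it Cd68, while Lyz2 was at 1.80 to 14.2. The 6 dendritic cell markers summed to 1131 and 1058 in DMSO and to 615 and 534 with TMP269. Of 5 tested, 2 were called lower and 0 higher, beside 14.7% and 12.8% of all tested genes. Most of the sum was Batf3, which activated T cells also express. Flt3 was at 214 and 303 in DMSO and at 69.3 and 57.9 with TMP269. Itgax (28.8 and 20.5 against 41.3 and 46.5) and Xcr1 (12.6 and 10.9 against 19.6 and 29.4) went the other way. Across the 4 libraries the 2 CD8 T cell markers summed to 299 to 427, 4 NK cell markers to 188 to 205 and 2 erythroid markers to 3.60 to 12.3 normalised reads. No marker with a row in the table was at 0 in all 4 libraries. The part of these other cell types in the levels of the arrestin genes was not tested. In such bulk samples fewer cells of a type and less RNA per cell cannot be told apart.

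Of the 5 alpha-arrestin genes, 2 rose with TMP269, 0 fell and 3 did not pass the test. The count of 0 was the same at an unadjusted p under 0.05 in limma and with edgeR or DESeq2. Txnip rose 1.28-fold and Arrdc4 2.22-fold. Among all tested genes, 12.8% were called higher and 14.7% lower with limma at a Benjamini-Hochberg adjusted p under 0.05. The median log2 fold change was 0.23 over the 5 members and -0.0037 over all tested genes, and with 1 library left out the median of the members ranged from 0.15 (without DMSO replicate 2) to 0.36 (without DMSO replicate 1). All 5 members had a higher mean with TMP269, and in 4 of 5 both TMP269 libraries lay above both DMSO libraries, as they did in 32.6% of all tested genes. Changes were computed as differences of log2(value + 1), and so the change of a low gene such as Arrdc4 is understated. Levels are not compared between genes, because transcript lengths were not used here.

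Txnip was at 1335 and 1137 normalised reads in DMSO replicates 1 and 2 and at 1463 and 1710 in TMP269 replicates 1 and 2. The groups did not overlap, and the gap between DMSO replicate 1 and TMP269 replicate 1 was smaller than the gap within either pair. The means were 1236 ± 140 and 1586 ± 175 (SD, n = 2), and the log2 difference was 0.36 ± 0.11 (SE) with an adjusted p of 0.0399 in limma. This change was above that of 81.5% of tested genes. The 95% Poisson intervals of DMSO replicate 1 (1268 to 1405) and TMP269 replicate 1 (1387 to 1541) met, and they cover counting error only. The call was lost without DMSO replicate 2 (log2 fold change 0.24, limma adjusted p = 0.189) or without TMP269 replicate 2 (0.25, limma adjusted p = 0.197). It was also lost with no filter on low values, where 17111 genes were tested (limma adjusted p = 0.0572). In the reference annotation the lncRNA gene Gm15441 overlaps Txnip. It was at 3.62 to 17.1 normalised reads, far below Txnip, and it was highest in DMSO replicate 1.

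Arrdc4 was at 30.6 and 19.3 normalised reads in DMSO and at 71.3 and 42.7 with TMP269. These values rest on 34, 16, 69 and 45 reads. The groups did not overlap, but the libraries of each pair differed by 1.59-fold in DMSO and by 1.67-fold with TMP269. The means were 24.9 ± 7.99 and 57.03 ± 20.2 (SD, n = 2), and the log2 difference was 1.15 ± 0.35 (SE) with an adjusted p of 0.0389 in limma, above the change of 97.7% of tested genes. The 95% Poisson interval was 21.2 to 42.7 for DMSO replicate 1 and 31.2 to 57.2 for TMP269 replicate 2, so the nearest libraries of the groups were not apart by counting alone. The call was lost without DMSO replicate 2 (log2 fold change 0.83, limma adjusted p = 0.145) or without TMP269 replicate 1 (0.79, limma adjusted p = 0.254). DESeq2 did not call it (adjusted p = 0.0798), nor did limma with no filter on low values (adjusted p = 0.0643).

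**Figure D1:**
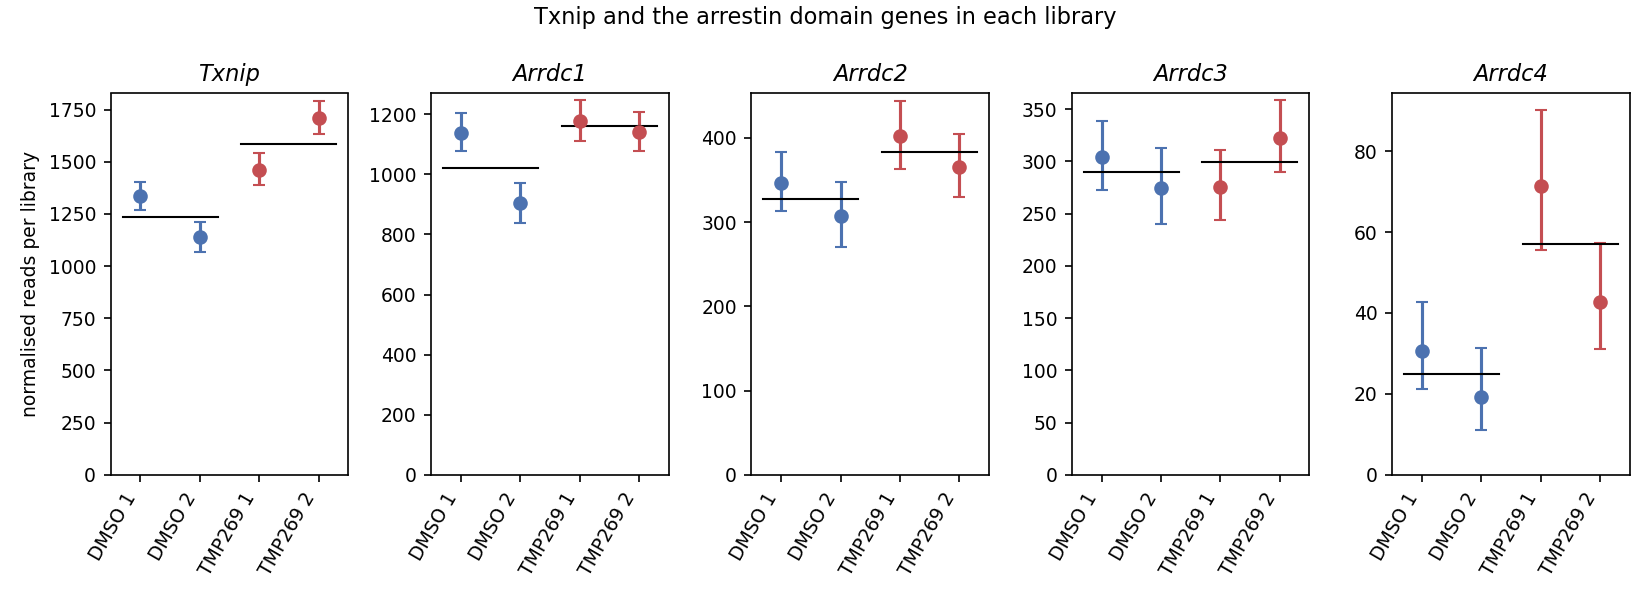
Normalised reads of the 5 alpha-arrestin genes in each library (vertical axes from 0, one scale per gene). Points are libraries, blue for DMSO and red for TMP269, bars are 95% Poisson intervals of the read count, and black lines are group means. The TMP269 points lie above the DMSO points for Txnip, Arrdc1, Arrdc2 and Arrdc4 and overlap them for Arrdc3.

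Arrdc1, the vesicle budding adaptor, was at 1138 and 903 normalised reads in DMSO and at 1178 and 1142 with TMP269. DMSO replicate 2 stood low and the other 3 libraries lay close together. The log2 fold change was 0.19 ± 0.11 (SE, limma adjusted p = 0.237). It was 0.027 without DMSO replicate 2 (limma adjusted p = 0.893) and 0.36 without DMSO replicate 1 (limma adjusted p = 0.0323), so the choice of DMSO library set both its size and its call. Arrdc2 was at 346 and 308 normalised reads in DMSO and at 402 and 366 with TMP269. Its groups did not overlap, and the change of 0.23 ± 0.12 (log2, SE) did not pass (limma adjusted p = 0.195). Leaving out DMSO replicate 2 gave 0.15 and leaving out DMSO replicate 1 gave 0.32, neither of them called (limma adjusted p = 0.568 and 0.152). Arrdc3, the adaptor of beta-adrenergic receptors, was at 304 and 275 in DMSO and at 276 and 323 with TMP269. The groups overlapped, the log2 fold change was 0.046 ± 0.14 (SE, limma adjusted p = 0.828), and its sign turned without DMSO replicate 2 (-0.027) or TMP269 replicate 2 (-0.067). Arrdc5, a related gene that was not among the members, had 0 reads in all 4 libraries.

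All 5 members were lower in DMSO replicate 2 than in DMSO replicate 1, as were 46.6% of all tested genes. With DMSO replicate 2 left out, limma called 0 of 5 members (at an unadjusted p under 0.05 it called 1, Arrdc4), while 8.48% of all tested genes were called higher. With DMSO replicate 1 left out, 3 members were called higher, Arrdc1 beside Txnip and Arrdc4 (14.4% of tested genes). With TMP269 replicate 1 left out only Txnip was called (9.16% of tested genes higher), and with TMP269 replicate 2 left out only Arrdc4 (9.94%). Without a filter on low values limma called 0 of 5 (8.31% of genes higher, and Txnip and Arrdc4 at an unadjusted p under 0.05), and DESeq2 called 1, Txnip (10.7%). When the libraries were instead scaled to equal totals, the median log2 fold change across genes went from -0.0037 to 0.10. On that scale Txnip had a log2 fold change of 0.46 and Arrdc4 of 1.25, both called (17.1% of tested genes were called higher), and Arrdc3 one of 0.15, near the shifted median.

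**Figure D2:**
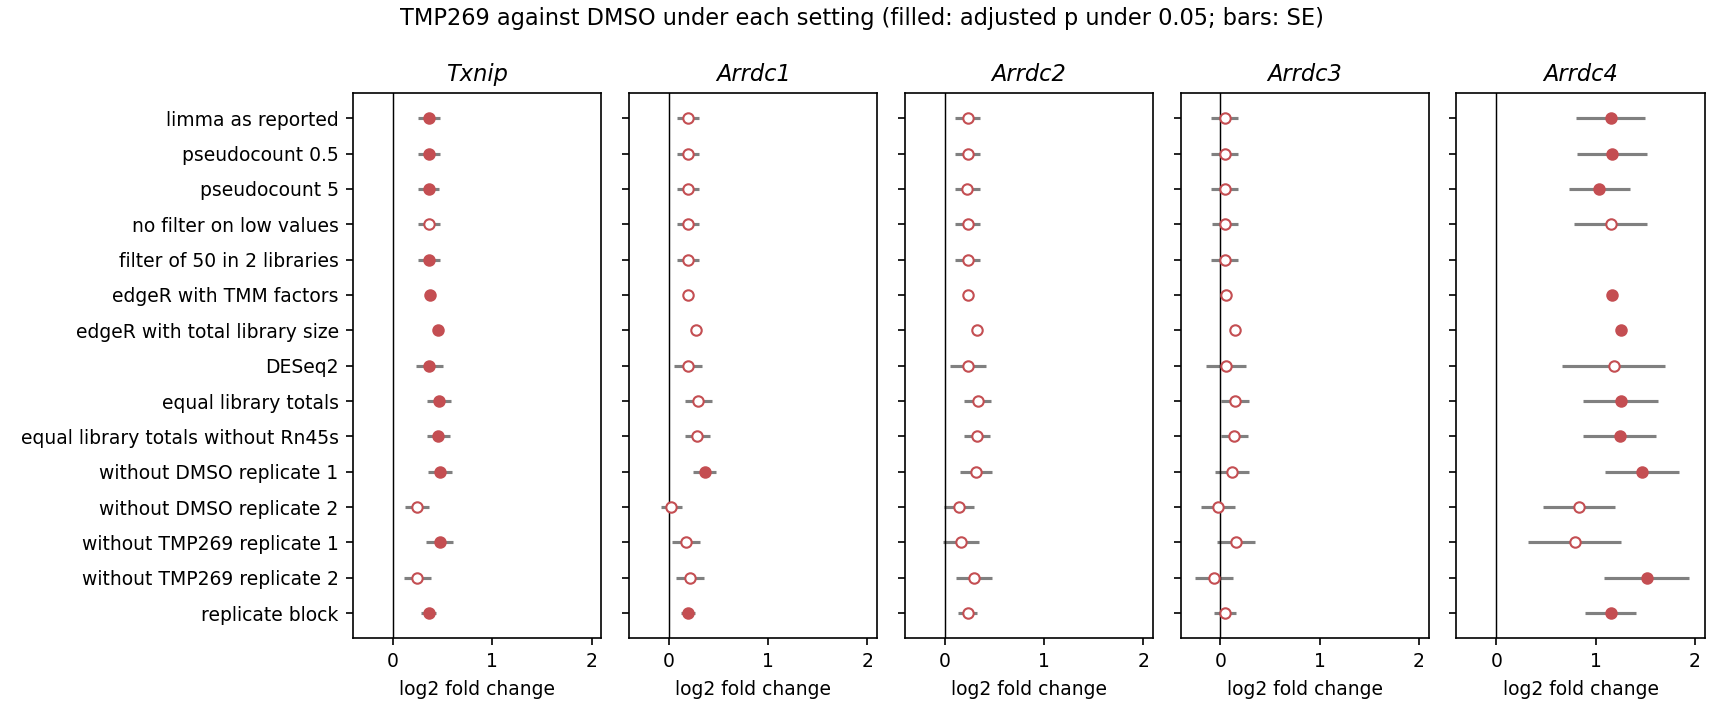
Log2 fold change of each member (horizontal axis) under each setting (vertical axis), with filled points for an adjusted p under 0.05, open points otherwise, and bars for the SE where the tool gives one. Txnip was called in 12 of 15 settings and Arrdc4 in 10 of 14, and both are open without DMSO replicate 2.

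Whether the members moved by unequal amounts was read from the ratio of Txnip to each other member within a library, which hardly depends on the size factor. The log2 ratio of Txnip to Arrdc3 was 2.13 and 2.04 in DMSO and 2.40 in each TMP269 library. The log2 ratio of Txnip to Arrdc4 was 5.40 and 5.81 in DMSO and 4.34 and 5.29 with TMP269. In these pairs the groups did not overlap, and the group means differed by 0.31 for Arrdc3 and by -0.79 for Arrdc4. An exact two-sided permutation test gave p = 0.333 for each, the smallest that 2 against 2 libraries allow. The ratios of Txnip to Arrdc1 and to Arrdc2 overlapped between the groups, with differences of 0.17 and 0.13 (exact permutation p = 0.667 and 1). These differences hung on single libraries. Without TMP269 replicate 2 the difference was 0.030 for Arrdc1, -0.053 for Arrdc2, with its sign turned, and -1.27 for Arrdc4. Without TMP269 replicate 1 it was 0.30, 0.31 and -0.32. For Arrdc3 it stayed between 0.27 and 0.36 whichever library was left out. A total of 4 ratios were compared, and none can pass a threshold of 0.05 in this design.

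Other genes were ranked by how closely their log2 profiles followed each member over the 4 libraries, each profile centred on its own mean, among 9494 named genes with a mean of at least 100 normalised reads. Over so few libraries such a match is a description of these libraries. The nearest to Txnip were Sla2, an adaptor that dampens T cell receptor signals (distance 0.052 on the log2 scale), and Nicn1 (0.055). The nearest to Arrdc4 were Ccl20, the chemokine ligand of CCR6 (0.22), and the autophagy gene Atg9b (0.24). The chromatin remodelling genes Chd8 and Ep400 were nearest to Arrdc2 (0.019 each). Nudt22 (0.030) and Zfp810 (0.034) were nearest to Arrdc1, and Habp4 (0.035) and Hspbap1 (0.039) to Arrdc3. Of these genes, limma called Ccl20 (log2 fold change 0.93, adjusted p = 0.0321) and Atg9b (1.04, adjusted p = 0.00493). Ccl20 was not called without DMSO replicate 2 (0.60, limma adjusted p = 0.130) or TMP269 replicate 1 (0.59, limma adjusted p = 0.0885). Chd8 and Ep400, which did not pass (limma adjusted p = 0.0801 and 0.0959), were called higher without DMSO replicate 1 (limma adjusted p = 0.0419 and 0.0326), and Chd8 also with equal library totals (limma adjusted p = 0.0470).

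Mlxip, which encodes the MLX partner MondoA, did not pass. It was at 1556 and 1438 normalised reads in DMSO and at 1852 and 1610 with TMP269 (limma adjusted p = 0.135). Mlx was at 1025 and 1147 in DMSO and at 1055 and 1113 with TMP269, overlapping groups with a log2 fold change of -5.1e-04 that had either sign across scalings (limma adjusted p = 0.997). Mlxipl, which encodes ChREBP, was at 4.50 and 3.62 in DMSO and at 11.4 and 2.85 with TMP269, below the filter for testing. Of 11 tested genes of the MLX and MYC network, 2 rose, 2 fell and 7 did not pass. Beside this list and every list below, 12.8% of all tested genes were called higher and 14.7% lower. The median log2 fold change of the network was -5.1e-04 (0.10 with equal library totals, and -0.063 to 0.11 with 1 library left out). Mxd1, a repressor that competes with MYC for MAX, rose 2.56-fold from 1614 and 2130 to 4074 and 5532 normalised reads (limma adjusted p = 9.36e-04). Mnt, another such repressor, rose 1.47-fold. Mxi1 fell to 0.744-fold and Myc to 0.805-fold, and both calls were lost with equal library totals (limma adjusted p = 0.0797 and 0.0786). The call of Myc was also lost without TMP269 replicate 1 (0.0877) or TMP269 replicate 2 (0.124).

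The glucose transporter and hexokinase genes, whose products set the entry of glucose that TXNIP and ARRDC4 restrain, moved in both directions. Of 10 tested genes, 3 rose, 5 fell and 2 did not pass, beside 12.8% of all tested genes called higher and 14.7% lower. The median log2 fold change was -0.11. It was -0.0053 with equal library totals and 0.19 with the filter of 50, under which fewer of these genes were tested. With 1 library left out it ran from -0.27 (without DMSO replicate 2) to -4.2e-04 (without DMSO replicate 1). Slc2a3, which encodes the high-affinity transporter GLUT3, was at 5546 and 5087 normalised reads in DMSO and at 1597 and 2037 with TMP269 (log2 fold change -1.56 ± 0.11, SE, limma adjusted p = 1.47e-04). Slc2a1, which encodes the widespread transporter GLUT1, was at 10302 and 10565 in DMSO and at 6982 and 7159 with TMP269 (-0.56 ± 0.079, limma adjusted p = 0.00183). For both transporter genes the gap between the groups was wider than the gap within either pair, whereas for Txnip it was narrower. Hk2, the inducible hexokinase gene, was at 8157 and 7066 in DMSO and at 6358 and 5127 with TMP269 (limma adjusted p = 0.0303, but 0.0878 without DMSO replicate 1, 0.191 without TMP269 replicate 2 and 0.136 with equal library totals). Slc2a6, a lysosomal family member, rose 2.24-fold from 1534 and 1404 to 3507 and 3087 normalised reads (limma adjusted p = 1.65e-04). Slc2a4, which encodes the insulin-responsive GLUT4, went from 11.7 and 6.03 to 52.7 and 52.2 (limma adjusted p = 0.00259). The number called lower in this list was 3 without DMSO replicate 1 or TMP269 replicate 2, and 2 with equal library totals.

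Genes of the thioredoxin system, the redox partner of TXNIP, were listed with the sestrin genes and Nlrp3. Of 17 tested, 8 fell, 2 rose and 7 did not pass, beside 14.7% of all tested genes called lower and 12.8% higher. The 8 that fell encode thioredoxin or thioredoxin-like proteins, a thioredoxin reductase or peroxiredoxins, and the 2 that rose are sestrin genes. The median log2 fold change of the 17 genes was -0.30 (-0.19 with equal library totals). Txn1, the cytosolic thioredoxin that TXNIP binds, was at 9636 and 11536 normalised reads in DMSO and at 6832 and 8020 with TMP269 (log2 fold change -0.51 ± 0.11, SE, limma adjusted p = 0.0120, but 0.0509 without TMP269 replicate 1). Txnrd1, the reductase that recharges thioredoxin, did not pass (limma adjusted p = 0.177, but 0.0491 without DMSO replicate 1). The peroxiredoxin genes Prdx6 and Prdx3, whose products remove peroxides, fell to 0.718-fold and 0.716-fold. The genes that rose were the sestrin genes Sesn2 (2.00-fold) and Sesn3 (1.28-fold, limma adjusted p = 0.0180, but 0.0692 without DMSO replicate 1 and 0.0586 without TMP269 replicate 1). The number called lower was 5 without DMSO replicate 2, without TMP269 replicate 1 or with equal library totals.

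Among NEDD4 family ligases and their adaptors, with which alpha-arrestins act, 1 of 10 tested genes rose, 1 fell and 8 did not pass. The median log2 fold change was 0.064, but 0.023 without DMSO replicate 1, 0.11 without DMSO replicate 2 and 0.17 with equal library totals. On that last scale 3 genes were called higher, Ndfip1, Ndfip2 and Smurf1. Nedd4 was at 2130 and 1765 normalised reads in DMSO and at 1373 and 983 with TMP269 (log2 fold change -0.74 ± 0.15, SE, limma adjusted p = 0.00890), and it was called in all 15 settings. Itch, a ligase that limits helper T cell responses, overlapped between the groups (2005 and 2288 against 2219 and 2263, limma adjusted p = 0.609). Ndfip1, an activator of these ligases, was at 4013 and 4483 against 4503 and 4962 (limma adjusted p = 0.220, but 0.0406 with equal library totals). Its relative Ndfip2 rose 1.24-fold (limma adjusted p = 0.0372), a call lost without DMSO replicate 1 (0.0938), DMSO replicate 2 (0.0745) or TMP269 replicate 2 (0.255).

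Of the other genes with an arrestin fold, 6 were tested, of which 0 rose, 2 fell and 4 did not pass, with a median log2 fold change of 0.17. The median was 0.074 without DMSO replicate 1 and 0.27 with equal library totals. The count of 0 was the same at an unadjusted p under 0.05 in limma, with DESeq2 and with edgeR and TMM factors. It was 1 with equal library totals (Vps26a) and 2 in edgeR with total library size (Vps26a and Dscr3). Arrb1, which encodes the receptor adaptor beta-arrestin 1, was at 5766 and 5449 normalised reads in DMSO and at 3948 and 3681 with TMP269 (log2 fold change -0.56 ± 0.080, SE, limma adjusted p = 0.00196), and it was called in all 15 settings. Arrb2, its close relative, was at 2175 and 1989 against 2471 and 2185, and did not pass (limma adjusted p = 0.218). Vps26b, a retromer subunit gene, fell to 0.795-fold (limma adjusted p = 0.0133, but 0.0543 without DMSO replicate 2, 0.0741 without TMP269 replicate 1 and 0.0516 with equal library totals). Among 22 ESCRT genes, the machinery that ARRDC1 recruits, 2 rose, 1 fell and 19 did not pass, Tsg101 among them, with a median log2 fold change of -0.018 (0.086 with equal library totals, and -0.064 to 0.023 with 1 library left out). The genes that rose were Hgs (1.29-fold) and Pdcd6ip, which encodes ALIX (1.20-fold), and the one that fell was Snf8 (0.837-fold). None of the 22 ESCRT genes was called higher or lower without DMSO replicate 2 or without TMP269 replicate 1. Pdcd6ip and Snf8 were not called by limma with any of the 4 libraries left out, and Snf8 was not called by DESeq2 (adjusted p = 0.134) or by edgeR with TMM factors (adjusted p = 0.0514).

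Txnip is also a known target of FOXO factors and of glucocorticoids. Of 15 tested FOXO genes and targets, 6 rose, 1 fell and 8 did not pass. Over all tested genes, 12.8% were called higher and 14.7% lower. The median log2 fold change of the FOXO genes and targets was 0.18. The median was 0.055 without TMP269 replicate 2, 0.11 without DMSO replicate 1, 0.31 without TMP269 replicate 1 and 0.28 with equal library totals. Pik3ip1, an inhibitor of PI3 kinase, rose 1.99-fold from 226 and 224 to 418 and 484 normalised reads (limma adjusted p = 0.00131), and Ccr7, a homing receptor gene, rose 1.54-fold. Foxo3 and Foxo1 were among those that rose, although Foxo1 was not called without DMSO replicate 2 (limma adjusted p = 0.0813) or TMP269 replicate 1 (limma adjusted p = 0.100), and Cited2 fell to 0.620-fold. Of 11 tested glucocorticoid receptor genes and targets, 2 rose, 3 fell and 6 did not pass, with a median of 0.045 that turned to -0.16 without DMSO replicate 2, -0.10 without TMP269 replicate 1 and -0.087 without TMP269 replicate 2. Tsc22d3, which encodes GILZ, rose 1.36-fold (limma adjusted p = 0.0169, but 0.0742 without DMSO replicate 2, 0.0601 without TMP269 replicate 1 and 0.0592 without TMP269 replicate 2). Dusp1 rose 1.28-fold (limma adjusted p = 0.0414, but 0.0541 and 0.155 when DMSO replicate 1 or 2 was left out and 0.241 when TMP269 replicate 2 was). The kinase gene Sgk1 fell to 0.492-fold and the immunophilin gene Fkbp4 to 0.635-fold. Fkbp5 was also called lower. Of 7 tested subunit and kinase genes of AMPK, which marks TXNIP for degradation, 0 were called by limma, at an adjusted or an unadjusted p under 0.05, nor by edgeR or DESeq2.

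**Figure D3:**
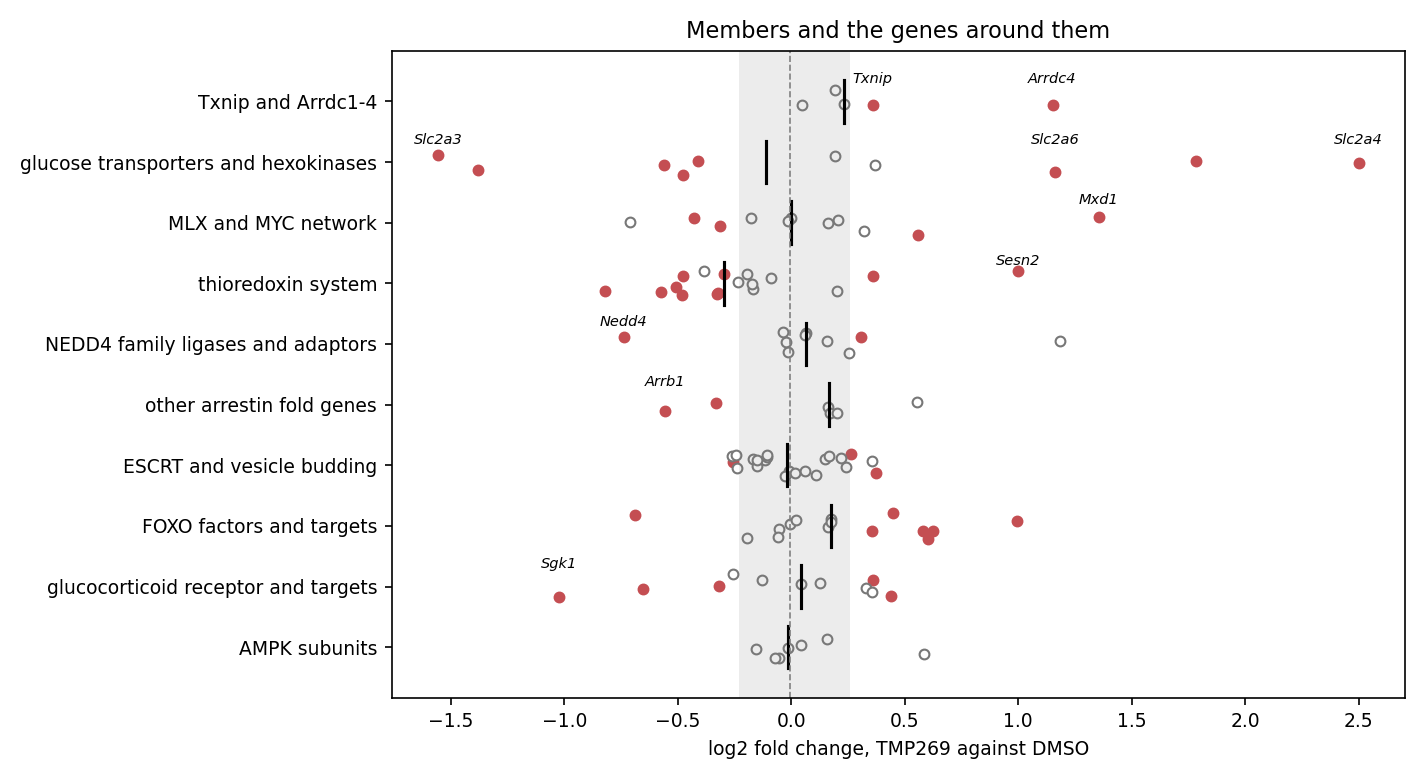
Log2 fold change with TMP269 against DMSO (horizontal axis) of each tested gene in the members and in 9 lists around them (vertical axis), with filled points for called genes and black bars for list medians. The dashed line and grey band give the median (-0.0037) and the quartiles (-0.23 and 0.26) of all tested genes. Of the labelled genes, Txnip, Arrdc4, Slc2a6, Slc2a4, Mxd1 and Sesn2 lie above the band, and Slc2a3, Nedd4, Arrb1 and Sgk1 lie below it.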

How the data were processed

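The authors deposited 1 table of normalised signal, in which each library's read counts per gene had been divided by 1 size factor. This was read from the values, which returned whole reads for 100% of entries (tolerance 1e-04 reads). The size factors were 0.829 to 1.11. Per the submitters' processing notes mm9 was the build, and DESeq2, HTSeq, TopHat2 2.1.0, Bowtie2 and CASAVA 1.4 were used, with no role given. The annotation, strand setting and multi-mapping rules are not known here, so reads of overlapping genes cannot be told apart. Columns named WT were matched to the DMSO samples through the sample descriptions.

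All genes with at least 10 normalised reads in at least 2 of 4 libraries were fitted together on log2(value + 1) in limma 3.58.1 (R 4.3.3), using a mean-variance trend, two-sided tests and Benjamini-Hochberg adjustment over 12535 genes. An exact test of 2 against 2 libraries cannot give a p below 0.333. Simulated data had the depths of these libraries, and 12396 genes were tested in them. There limma recovered 68.2% of 66 genes changed 1.5-fold, 89.4% of 66 changed 2-fold and 96.9% of 65 changed 4-fold, with 4.02% false calls. The simulation gave every gene 1 common dispersion (0.00621) and nothing shared by same-numbered libraries, and it changed far fewer genes than were called here. Its rates therefore do not carry over to single members such as Arrdc4. Alternatives were edgeR 4.0.16 and DESeq2 1.42.0 on the recovered reads, other scalings, filters and pseudocounts, a replicate block, and each library left out. Leaving out a library leaves its group with a single one, whose spread is then taken from the other group. The edgeR test with TMM factors called 3406 genes, against 3448 for limma.

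The members and the 9 gene lists were chosen with earlier results of these data known. Named genes were the members, 13 partner genes, up to 2 called genes in each direction per list by smallest p, and the 2 genes nearest to each member. Fnip1, Man2b2, Nfkb2, Foxo1, Foxo3, Tsg101, Smurf1, Vps26a, Dscr3, Fem1b, Rbbp4, Irak1bp1, Nlrp3, Fkbp5, Gm15441 and Arrdc5 were named outside that rule.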

Additional observations from a re-analysis of the deposited data

How the results depend on the processing

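Txnip kept a positive log2 fold change in all 15 settings and Arrdc4 in all 14 that could be run, since Arrdc4 did not pass the filter of 50. With no filter on low values both calls were lost at log2 fold changes of 0.36 and 1.15, where more genes were tested, and Arrdc4 was not called by DESeq2 at 1.19, for which the cause was not tested. Over the 4 fits that each left out 1 library, Txnip ranged from 0.24 to 0.47, Arrdc1 from 0.027 to 0.36, Arrdc2 from 0.15 to 0.32, Arrdc3 from -0.067 to 0.16 and Arrdc4 from 0.79 to 1.51, and the number of genes called from 2078 (without DMSO replicate 2) to 3675, with 2287 without TMP269 replicate 1. Same-numbered libraries deviated together across genes (r = 0.371), but the labels do not say that a number marks a shared batch and there were only 2 pairs. With the replicate number as a block the number of genes called rose to 6360, and Arrdc1 was called at 0.19 (limma adjusted p = 0.0293). The block also gave calls to Mlxip (limma adjusted p = 0.00657), Txnrd1 (0.0154), Ndfip1 (0.0202), Arrb2 (0.0228), Sla2 (0.0177), Nicn1 (0.0142), Chd8 (0.00139) and Ep400 (0.0014). Under it the number called higher went from 2 to 5 in the MLX and MYC network, from 1 to 4 among NEDD4 ligases and adaptors, from 0 to 3 among other arrestin fold genes and from 2 to 4 among ESCRT genes. The number called lower went from 1 to 7 among ESCRT genes and from 1 to 2 among FOXO genes. Mlx, which was not called in any setting, turned sign with edgeR and TMM factors (0.014), edgeR and total library size (0.10), DESeq2 (0.0078), equal library totals (0.10) and equal totals without Rn45s (0.095), and ranged from -0.082 to 0.081 with 1 library left out. Itch (-0.030 to 0.16), Habp4 (-0.059 to 0.17) and Hspbap1 (-0.074 to 0.14), none of them called in any setting, also turned sign with 1 library left out. Depth limits Arrdc4 most, at 16 to 69 reads per library.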

Other observations

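The carbohydrate response element-like pattern found before the start of Txnip occurs before 14 genes of the reference table. This group was assembled after the data were seen, around the window of Txnip, so Txnip is left out of the counts. Of the 8 other tested genes, limma called 3 higher with TMP269 and 0 lower, and 5 were not called. The count of 0 was the same at an unadjusted p under 0.05 in limma on all 4 libraries without a block. It was also 0 with edgeR or DESeq2. At the unadjusted threshold it did not hold in every limma fit with 1 library left out. With the replicate block 2 were called lower (Fem1b and Rbbp4). Among all tested genes 12.8% were called higher and 14.7% lower. Of the genes not called, Fem1b, Irak1bp1 and Rbbp4 had both TMP269 libraries below both DMSO libraries. In the rest of those not called, the TMP269 libraries lay above or overlapped. The median log2 fold change of the 8 genes was 0.10, and it was -0.11 with the filter of 50, under which 7 were tested. The genes called were Fnip1, which encodes a folliculin partner (log2 fold change 0.51 ± 0.080, SE, limma adjusted p = 0.00272), the NF-kappaB gene Nfkb2 (0.35 ± 0.0999, limma adjusted p = 0.0306) and the lysosomal mannosidase gene Man2b2 (0.31 ± 0.083, limma adjusted p = 0.0240). Fnip1 was called in all 15 settings. Nfkb2 was not called without DMSO replicate 2 (limma adjusted p = 0.125) or TMP269 replicate 1 (0.259). The call of Man2b2 was lost in limma when DMSO replicate 2 (adjusted p = 0.111) or either of the TMP269 libraries was left out (adjusted p = 0.132 and 0.0601). A shared letter pattern is a description of these windows, and no test was made of the group.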
